A study of Mus musculus with 4 samples.

Results

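The Notch receptors, ligands and core effectors described here are 10 genes, Notch1, Notch2, Notch4, Dll1, Dll4, Jag1, Jag2, Rbpj, Hes1 and Nrarp, taken by symbol from a table of 17915 coding genes, and all 10 were found in it and passed the filter on low counts. The table holds bulk RNA sequencing of endothelial cells from mouse lung, in 2 libraries of tdTomato+ cells and 2 libraries of ZsGreen+ cells. Both groups came from mice of the genotype Cdh5-CreER;aSMA-LSL-Dre;NR1 given tamoxifen 5 times and taken 6 weeks into transverse aortic constriction (TAC), a narrowing of the aorta that loads the heart, and no library of unoperated mice is part of the comparison. Cdh5-CreER is a tamoxifen-inducible recombinase driven from the VE-cadherin gene in endothelium, and the Dre recombinase is tied to alpha smooth muscle actin (aSMA). Endothelial cells carried ZsGreen and turned to tdTomato once aSMA had been active, however briefly, so the tdTomato mark records a past event and not the state at sorting. The comparison asks what such activation means for gene expression. The libraries are labelled as biological replicates, but the labels do not say that they came from separate mice, so p-values measure only the spread between these libraries.

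Notch signalling runs between touching cells. A ligand of the Delta-like (Dll) or Jagged (Jag) family on one cell binds a Notch receptor on its neighbour, the receptor is cut by a metalloprotease and then by gamma-secretase, and its freed intracellular part joins the DNA-binding protein RBPJ and switches on targets such as the Hes and Hey repressors and Nrarp, a feedback inhibitor. In vessels the pathway is known for setting arterial identity and for restraining sprouting, with Dll4, Jag1, Notch1 and Notch4 as the members best known from endothelium.

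Promoters are shown for 4 members. Those of Jag1 and Jag2 were chosen for the largest differences in each direction, though neither gene passed the adjusted test of the main comparison. The others are those of Nrarp, the member target with a log2 fold change above 0, and of Rbpj, the DNA-binding partner. Each runs 5′ to 3′ from 250 bases before to 50 bases after an annotated start (RefSeq, GRCm38.p6), and capitals mark TGGGAA, the core letters bound by RBPJ, on either strand, or the palindrome CACGTG, an E-box of the kind bound by Hes and Hey repressors.
Jag1, chr2:137116471-137116770, minus strand: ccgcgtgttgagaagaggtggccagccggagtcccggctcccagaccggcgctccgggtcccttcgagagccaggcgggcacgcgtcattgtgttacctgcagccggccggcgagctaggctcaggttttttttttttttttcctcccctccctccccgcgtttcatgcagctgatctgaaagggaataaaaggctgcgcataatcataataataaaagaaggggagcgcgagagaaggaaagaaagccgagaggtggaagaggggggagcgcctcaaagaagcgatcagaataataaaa
Jag2, chr12:112929446-112929745, minus strand: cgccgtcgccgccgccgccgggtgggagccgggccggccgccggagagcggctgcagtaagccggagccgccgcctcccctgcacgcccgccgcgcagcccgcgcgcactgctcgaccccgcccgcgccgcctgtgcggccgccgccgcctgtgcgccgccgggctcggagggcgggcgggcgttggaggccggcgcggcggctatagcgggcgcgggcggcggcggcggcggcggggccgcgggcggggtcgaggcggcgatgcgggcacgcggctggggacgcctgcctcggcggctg
Nrarp, chr2:25180508-25180807, plus strand: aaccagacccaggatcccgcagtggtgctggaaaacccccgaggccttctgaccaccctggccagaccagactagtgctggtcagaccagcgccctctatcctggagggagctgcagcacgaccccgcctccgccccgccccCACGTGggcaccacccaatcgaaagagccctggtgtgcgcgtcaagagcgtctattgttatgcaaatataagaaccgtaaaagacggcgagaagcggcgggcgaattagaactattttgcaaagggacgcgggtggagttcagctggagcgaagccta
Rbpj, chr5:53590096-53590395, plus strand: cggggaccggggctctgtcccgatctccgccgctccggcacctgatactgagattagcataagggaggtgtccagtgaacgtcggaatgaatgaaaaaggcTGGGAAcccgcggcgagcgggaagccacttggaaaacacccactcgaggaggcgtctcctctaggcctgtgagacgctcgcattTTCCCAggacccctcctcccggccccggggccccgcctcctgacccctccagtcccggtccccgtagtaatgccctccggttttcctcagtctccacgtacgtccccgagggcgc
The promoter table held 9 of the 10 members, with 11 starts, and Hes1 was not matched. TGGGAA or its reverse complement lay in promoters of 1 of those 9 genes, Rbpj, both of whose starts held it. Matches began 149 and 65 bases before the start shown, and 205 bases before the other, whose window overlaps the first. These starts lie inside the Rbpj gene span and not at its first base. Of all 32851 promoters of that length, counted by start and not by gene, 25.6% held it, and 3.79% held it at least 2 times. CACGTG lay in 1 of the 9, Nrarp, beginning 108 bases before its start, against 7.15% of all promoters. The Jag2 window also lies wholly inside its gene span and not before the first base of that span. It was the richest in G and C of the 11, at 86% with 63 CpG pairs. The Jag1 window had 55.7% and 22 pairs, and the median of all promoters was 52.7% and 7 pairs. These matches describe letters only.

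Library totals ran from 17050673 to 18574737 counts. Levels in CPM are counts divided by each library's TMM-scaled total, with no correction for gene length. Acta2, which encodes aSMA and checks the labels, stood at 303.9 and 527.5 CPM in the tdTomato+ libraries against 87.6 and 82.9 CPM in the ZsGreen+ libraries, a log2 fold change of 2.29 (edgeR adjusted p = 0.0432). The deposited Acta2 counts were fractions in all 4 libraries, which happens where a read matches more than 1 gene, so its level is uncertain. All 8 pan-endothelial markers were read in every library, with summed levels of 6344 and 5960 CPM in tdTomato+ and 7571 and 6879 CPM in ZsGreen+ libraries. Among 9 further marker lists, none of whose genes was at 0 in any library, venous endothelial genes summed to 2984 and 3815 against 1301 and 1100 CPM, aerocyte capillary (aCap) genes to 249.95 and 298.4 against 408.4 and 546.4 CPM with 7 of 7 lower, and general capillary (gCap) genes to 6935 and 7209 against 8691 and 7417 CPM with 7 of 7 lower. Fibroblast markers, 8 of 8 higher, summed to 237.5 and 435.97 against 96.4 and 118.4 CPM, mural cell markers, 7 of 8 higher and nearly all Tagln RNA, to 1364 and 1832 against 1329 and 925.1 CPM, and alveolar type 2 markers to 453.1 and 525.6 against 325.6 and 186.3 CPM. The summed levels overlapped for arterial endothelial markers (2064 and 3179 against 1994 and 2197 CPM), 5 of 8 higher, and for macrophage markers, 7 of 7 higher and mostly Lyz2 (4324 and 2229 against 2476 and 556.98 CPM). Those of lymphatic endothelial markers overlapped as well (713.3 and 1005 against 941.7 and 1231 CPM), but 6 of the 7 tested were lower, 3 of them called by edgeR (Mmrn1, Reln and Thy1, named after their values were seen), with a median log2 fold change of -2.03. The only one above 0, Lyve1, was also the most abundant, at 502.8 and 839.6 against 407.4 and 592.7 CPM, and its groups overlapped. Of the other lists, edgeR called 2 of 6 venous genes as higher and 1 of 7 aCap genes as lower, and none elsewhere. Over all genes tested it called 0.304%.

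The lung endothelial libraries were rich in Hes1, Dll4, Notch4, Notch1 and Nrarp RNA. The order of the members is given in TPM, which divides by gene length and so allows genes to be compared. In each of the 4 libraries Hes1 had the highest TPM of the 10 members, Dll4 the next and Notch2 the lowest. In CPM Hes1 stood below Dll4, Notch1 and Notch4 in every library. Hes1, the repressor that is a classic Notch target, had a mean of 128.5 TPM over the 4 libraries. Dll4, the Delta-like ligand of arterial and sprouting endothelium, followed at 101.1 TPM, and Notch4, the receptor largely restricted to endothelium, at 61.2 TPM. Nrarp came next at 43.4 TPM and Notch1, the main receptor of vascular development, at 38.8 TPM, then the ligands Dll1 at 26.1 and Jag2 at 22.4 TPM. Rbpj stood at 9.68 TPM, Jag1, the ligand tied to arteries and to signalling to mural cells, at 9.41 TPM, and the receptor Notch2 at 1.1 TPM. Neighbours in this order whose libraries overlapped were Notch4 with Nrarp, Nrarp with Notch1, Dll1 with Jag2, and Rbpj with Jag1. The other neighbours were apart in all 4 libraries.

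Between tdTomato+ and ZsGreen+ cells no member passed edgeR's quasi-likelihood test with Benjamini-Hochberg adjustment over 13177 genes, where 0.304% of all genes did. At an unadjusted p under 0.05 edgeR had 1 of the 10, Jag2, against 8.77% of all genes tested, and DESeq2 called none and also had 1 at that level. The members split evenly, 5 above and 5 below 0, with a median log2 fold change of -0.04 (tdTomato+ over ZsGreen+) beside -0.01 for all genes tested. None differed by 2-fold or more, a size reached by 9.75% of all genes. The CPM values of both groups were apart for 3 members, Jag2, Notch4 and Hes1, each lower in tdTomato+ cells, while 38.1% of all genes were apart in either direction, 18.2% in this one and 19.9% in the other. For 6 members, Notch1, Notch4, Dll1, Dll4, Rbpj and Hes1, the 95% interval of the difference lay inside 2-fold either way. For the other 4 it reached past 2-fold, so these libraries leave room for a difference of that size.

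**Figure D1:**
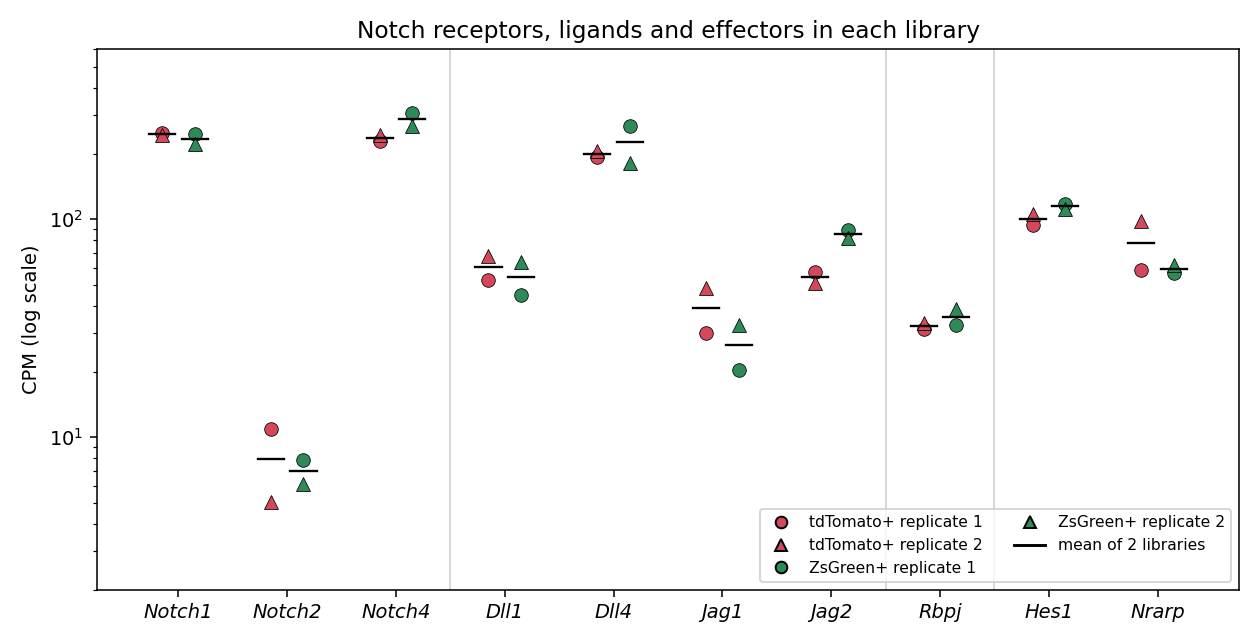
CPM on a log axis for the 10 members in each library, circles for replicate 1 and triangles for replicate 2, with the mean of each group as a bar. Notch2 did not exceed 10.9 CPM, the other 9 stood at 20.4 CPM or more, and the groups are apart for Notch4, Jag2 and Hes1 only.

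Among the receptors, Notch4 (chromosome 17, 34564286 to 34588543) stood at 229.2 and 242.97 CPM in the tdTomato+ libraries against 305.7 and 268.6 CPM in the ZsGreen+ libraries. Both tdTomato+ libraries were below both ZsGreen+ libraries, by a log2 fold change of -0.28 (SE 0.18, interval -0.72 to 0.15, edgeR adjusted p = 0.781). Notch1 (chromosome 2, 26457902 to 26503822) stood at 248.2 and 242.3 CPM against 244.6 and 220.7 CPM. These libraries overlapped, with a log2 fold change of 0.08 (interval -0.34 to 0.50). On the TPM scale Notch1 was instead apart, at 43.4 and 40.4 TPM against 34.7 and 36.9 TPM, and there its difference of 0.22 on the log2(TPM + 1) scale stood beside a median shift of 0.12 over all genes. Notch2 (chromosome 3, 98013538 to 98150367), a widely expressed receptor, was the lowest member, at 10.9 and 5.04 CPM against 7.85 and 6.14 CPM. The 2 tdTomato+ libraries enclosed both ZsGreen+ libraries, and the interval was wide, from -0.86 to 1.24 around 0.19, a value that turned to -0.47 without tdTomato+ replicate 1. Its highest library, tdTomato+ replicate 1, was also the one with the highest sum of macrophage markers (4324 CPM), whose part in the Notch2 level was not tested.

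The summed receptor level was nearly the same in all libraries while its make-up differed. Notch1 to Notch4 together gave 103.5 and 100.2 TPM in tdTomato+ and 98.7 and 102.9 TPM in ZsGreen+ cells. Notch4 held 56.2% and 58.6% of this sum in tdTomato+ cells and 63.7% and 63.2% in ZsGreen+ cells. Notch1 held 41.97% and 40.3% against 35.2% and 35.8%. Notch4 and Notch1 made up nearly all of the sum, so a lower share of one meant a higher share of the other. The groups were apart for both, which counts as 1 observation. The ratio of Notch4 to Notch1, 1.34 and 1.45 against 1.81 and 1.76, restates it. In CPM 38.1% of all genes tested were apart. Notch2 gave at most 1.67% and Notch3, the receptor of mural cells, at most 0.329% of the sum in any library. No test was run on these shares. An exact two-sided permutation test of 2 against 2 libraries cannot go below a p of 0.333.

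**Figure D2:**
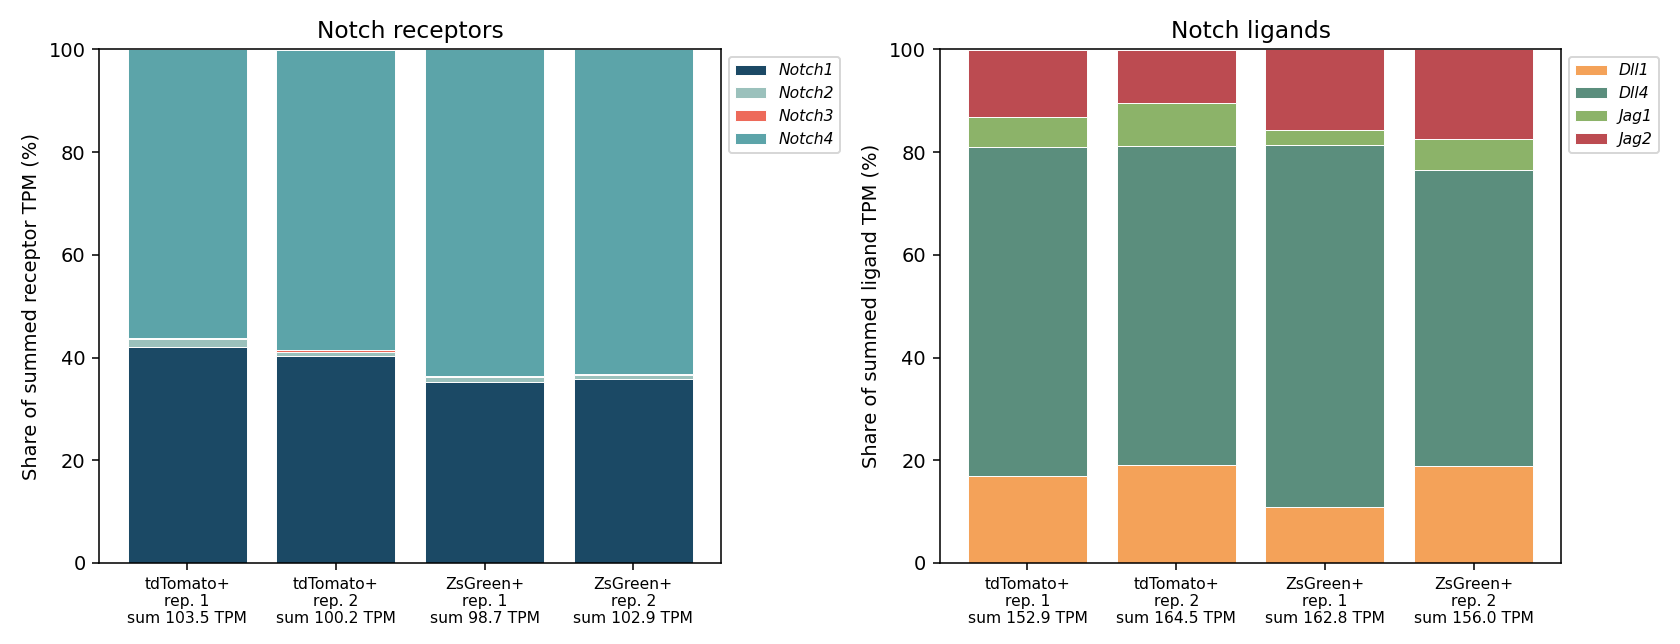
Share of each receptor (left) and each ligand (right) in the summed TPM of its family, as stacked bars for each library, with the sum under each bar. Notch4 takes 56.2% to 58.6% of receptor TPM in tdTomato+ cells and 63.2% to 63.7% in ZsGreen+ cells, and Jag2 takes 10.3% and 13.1% of ligand TPM against 15.6% and 17.5%.

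Of the ligands, the Jagged pair leaned in opposite directions. Jag2 (chromosome 12, 112907803 to 112929812) stood at 57.5 and 51.1 CPM in the tdTomato+ libraries against 89.6 and 82.3 CPM in the ZsGreen+ libraries, or 54.3 ± 4.53 against 85.96 ± 5.14 CPM (mean ± SD, n = 2 each). The gap between the groups was wider than the spread within either, with a log2 fold change of -0.66 (SE 0.17, interval -1.08 to -0.25, a fold of 0.63). It did not pass once adjusted over all genes (edgeR adjusted p = 0.272, DESeq2 adjusted p = 0.0804). Of lymphatic, aCap and gCap markers 6 of 7, 7 of 7 and 7 of 7 tested also lay below 0. Their median log2 fold changes were -2.03, -1.11 and -0.57. The lymphatic sums overlapped, and so did Lyve1, the most abundant and the only lymphatic marker above 0. All 6 venous markers lay above 0. The part of these cell types in the Jag2 difference was not tested. In bulk samples fewer cells of a type and less RNA per cell cannot be told apart.

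Jag1 (chromosome 2, 137081451 to 137116520) stood at 29.99 and 48.5 CPM in the tdTomato+ libraries against 20.4 and 32.8 CPM in the ZsGreen+ libraries. Replicate 2 was the higher library in both groups, by 1.62 and 1.61 times, and the groups overlapped. The log2 fold change was 0.56 (SE 0.32, interval -0.21 to 1.33, edgeR adjusted p = 0.752). Its size rested on single libraries, at 0.19 without tdTomato+ replicate 2, 0.26 without ZsGreen+ replicate 1, 0.86 without tdTomato+ replicate 1 and 0.94 without ZsGreen+ replicate 2. Among arterial genes, which Jag1 is known to accompany, the connexin gene Gja5 stood at 94.2 and 159.5 CPM against 38.6 and 24.4 CPM, Gja4, a second arterial connexin, at 299.9 and 513.8 against 439.4 and 463.5 CPM, and the ligand Efnb2 at 167.04 and 218.8 against 166.2 and 172.00 CPM, the 3 being picked from the arterial list after their values were seen. In that list 5 of 8 genes lay above 0 and 3 below, with a median log2 fold change of 0.92 and none called by edgeR. Fibroblast and mural marker sums were also higher in tdTomato+ libraries. The mural sum was nearly all Tagln RNA, at 1336 and 1787 against 1300 and 893.8 CPM. The part of these cells in the Jag1 level was not tested.

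Dll4 (chromosome 2, 119325784 to 119335666), the most abundant ligand, stood at 192.6 and 205.5 CPM in the tdTomato+ libraries against 268.2 and 181.5 CPM in the ZsGreen+ libraries. The ZsGreen+ pair enclosed the tdTomato+ pair, and the log2 fold change of -0.18 (interval -0.72 to 0.37) turned to 0.14 without ZsGreen+ replicate 1. Dll1 (chromosome 17, 15367354 to 15376932), a Delta-like ligand known from arterial endothelium, stood at 52.6 and 67.6 CPM against 44.9 and 63.4 CPM. Its groups overlapped as well, with 0.15 (interval -0.41 to 0.71), a difference that turned to -0.02 without tdTomato+ replicate 2 and to -0.08 without ZsGreen+ replicate 1.

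The 4 ligands summed to 152.9 and 164.5 TPM in tdTomato+ cells and to 162.8 and 156.01 TPM in ZsGreen+ cells. Dll4 made up 64.1% and 62.02% of this sum against 70.4% and 57.5%, an overlap. Jag2 made up 13.1% and 10.3% against 15.6% and 17.5%, with the groups apart. Jag1 made up 5.89% and 8.53% against 3.11% and 6.11%. The TPM ratio of Jag2 to Jag1 was thus 2.23 and 1.21 in tdTomato+ cells and 5.02 and 2.86 in ZsGreen+ cells, and that of Dll4 to Jag1 was 10.9 and 7.27 against 22.6 and 9.41. The first ratio was apart between groups and the second overlapped. That of Dll4 to Jag2 was apart as well, at 4.89 and 6 against 4.51 and 3.29. The Jag2 share and the ratios that were apart all hold the Jag2 values, so they are not separate observations. In CPM 38.1% of all genes tested were apart.

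**Figure D3:**
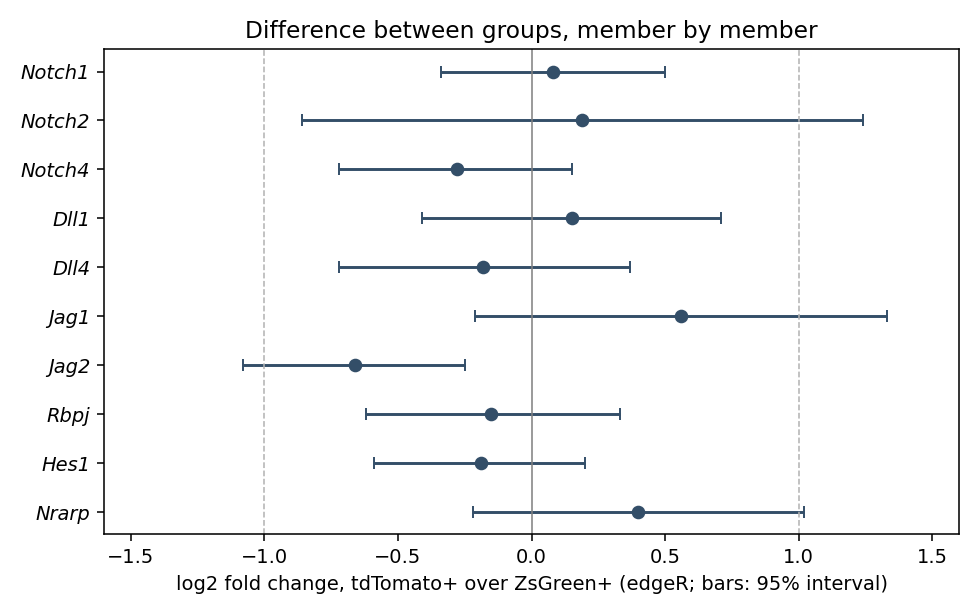
Log2 fold change of each member, tdTomato+ over ZsGreen+, as points with 95% intervals from edgeR's fit, dashed lines marking 2-fold. Jag2 is the single member whose interval, -1.08 to -0.25, leaves out 0, and the intervals of Notch2, Jag1, Jag2 and Nrarp cross a dashed line.

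Rbpj (chromosome 5, 53555779 to 53657445), through which all canonical Notch receptors act, stood at 31.3 and 33.4 CPM in the tdTomato+ libraries against 32.7 and 38.9 CPM in the ZsGreen+ libraries. The difference was -0.15 on the log2 scale (interval -0.62 to 0.33), within the overlap of the libraries. Rbpj was the one member whose deposited counts were fractions, in all 4 libraries, which happens where a read matches more than 1 gene, so its level is uncertain.

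Of the targets, Hes1 (chromosome 16, 30065357 to 30067796) stood at 94.5 and 105.6 CPM in the tdTomato+ libraries against 117.1 and 111.9 CPM in the ZsGreen+ libraries. The groups were apart on this scale, with a log2 fold change of -0.19 (interval -0.59 to 0.20, edgeR adjusted p = 0.846), and overlapped in TPM, at 123.7 and 130.5 against 122.02 and 137.9. Nrarp (chromosome 2, 25180758 to 25183339), whose protein promotes loss of the Notch intracellular part, stood at 58.5 and 97.7 CPM against 56.8 and 61.5 CPM. One library, tdTomato+ replicate 2, stood above the other 3, and without it the log2 fold change went from 0.40 (interval -0.22 to 1.02) to 0.01. The same library was the highest for Acta2, Jag1 and Dll1, though not for the other members. It was also the highest for genes of other kinds, such as Vwf, Lyve1 and Col1a1, picked after their values were seen. The 2 targets did not lean the same way.

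Some of these genes share exon bases with other transcripts, mostly of the other strand, and no source used here says whether counting used strand, so such reads cannot be told apart. In GENCODE M21 the antisense transcript Gm38287 covers 2051 of the 2582 exon bases of Nrarp. Notch1 shares 1068 of 14232 exon bases with 0610009E02Rik and 414 with Gm13568, Dll1 shares 867 of 4219 with A930024N18Rik, and Dll4 shares 214 of 3852 with Gm14207, all on the opposite strand. Notch2, the lowest member, shares 541 of 10782 with Gm42820 on its own strand, where strand would not separate the reads. Jag1, Jag2, Notch4, Hes1 and Rbpj share none.

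The wider pathway, 53 further genes grouped by role, also gave no call by edgeR. Of the 48 tested, 7 had an unadjusted p under 0.05, a level reached by 8.77% of all genes, 22 lay above and 26 below 0, and the median log2 fold change was -0.04. The CPM groups were apart for 20 of the 48, 10 in each direction, where 38.1% of all genes were apart, 19.9% upward and 18.2% downward, so this count is near the background. DESeq2, which called 2.5% of all genes, called 3 of these, Hey2 and Psen2 as higher and Dtx1 as lower in tdTomato+ cells. The 5 not tested were Dll3, Dlk1, Dlk2, Dner and Hes5, named after their values were seen, none above 0.367 CPM in any library.

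The Hey repressors, direct Notch targets that in vessels mark and maintain arterial fate, differed among themselves. Hey2 stood at 9.02 and 13.4 CPM in the tdTomato+ libraries against 3.23 and 2.52 CPM in the ZsGreen+ libraries, a log2 fold change of 1.96 (SE 0.38, edgeR adjusted p = 0.144, DESeq2 adjusted p = 0.00222). Heyl, known also from mural cells, stood at 3.52 and 3.31 against 1.08 and 1.26 CPM (1.54, interval 0.33 to 2.75). Hey1 stood at 97.1 and 85.8 against 166.04 and 110.5 CPM (-0.60, interval -1.14 to -0.05) and was the most abundant in TPM of the 6 targets in this wider list. Each of the 3 was apart between groups, 2 higher and Hey1 lower in tdTomato+ cells. Over all genes tested 38.1% were apart in either direction, and of the 5 targets tested in this wider list 2 overlapped. None of the Hey genes passed edgeR's adjusted test. Notch3, the mural receptor, lay near the floor at 0.825 and 1.68 against 0.696 and 0.603 CPM. Pdgfrb, a mural marker named after its values were seen, stood at 5.12 and 5.67 against 2.40 and 2.57 CPM. Myh11, another mural marker named after its values were seen, overlapped, at 4.07 and 7.67 against 2.85 and 4.71 CPM. In the mural list, which includes Notch3, 7 of 8 genes lay above 0 and 1 below, with none called by edgeR. The part of mural RNA in the Heyl and Notch3 values was not tested.

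Genes that cut the receptor were present throughout, with Psenen, the gamma-secretase subunit PEN-2, the most abundant at 641.8 to 802.1 TPM. Of 10 tested, 2 were apart upward and 2 downward, near the shares of 19.9% and 18.2% over all genes, and the median log2 fold change was -0.02. Psen2, one of the catalytic presenilins, stood at 48.7 and 63.3 CPM in the tdTomato+ libraries against 31.95 and 29.4 CPM in the ZsGreen+ libraries (0.87, SE 0.21, edgeR adjusted p = 0.226, DESeq2 adjusted p = 0.0418). Of the 8 sugar-adding enzymes, which tune the choice of ligand, 1 was apart in each direction, and Mfng, manic fringe, led with 194.5 to 276.4 TPM. Among 4 ubiquitin ligases that drive ligand uptake Mib2 led with 14.2 to 19.8 TPM, and 1 of the 4 was apart, lower in tdTomato+ cells.

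Among 8 nuclear partners, Maml2, a mastermind co-activator, stood at 69.3 and 65.05 against 40.8 and 54.1 CPM (0.50, interval 0.02 to 0.98). Its deposited counts too were fractions in all 4 libraries. Snw1, a co-factor that also takes part in splicing, led with 52.6 to 62.1 TPM. Of 11 genes of receptor turnover, Dtx1, the Deltex ligase and itself a known Notch target in lymphocytes, stood at 3.41 and 0.682 CPM in the tdTomato+ libraries against 13.7 and 7.39 CPM in the ZsGreen+ libraries. The groups were apart, with a log2 fold change of -2.36 (SE 0.72, edgeR adjusted p = 0.364, DESeq2 adjusted p = 0.0406), the lowest of the 48. Nedd4 led this role with 120.3 to 182.3 TPM. Egfl7, a secreted endothelial protein reported to bind Notch receptors, far exceeded every other gene of the pathway, at 2860 and 2754 TPM against 3811 and 3015 TPM, with a log2 fold change of -0.46 (interval -1.04 to 0.12).

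**Figure D4:**
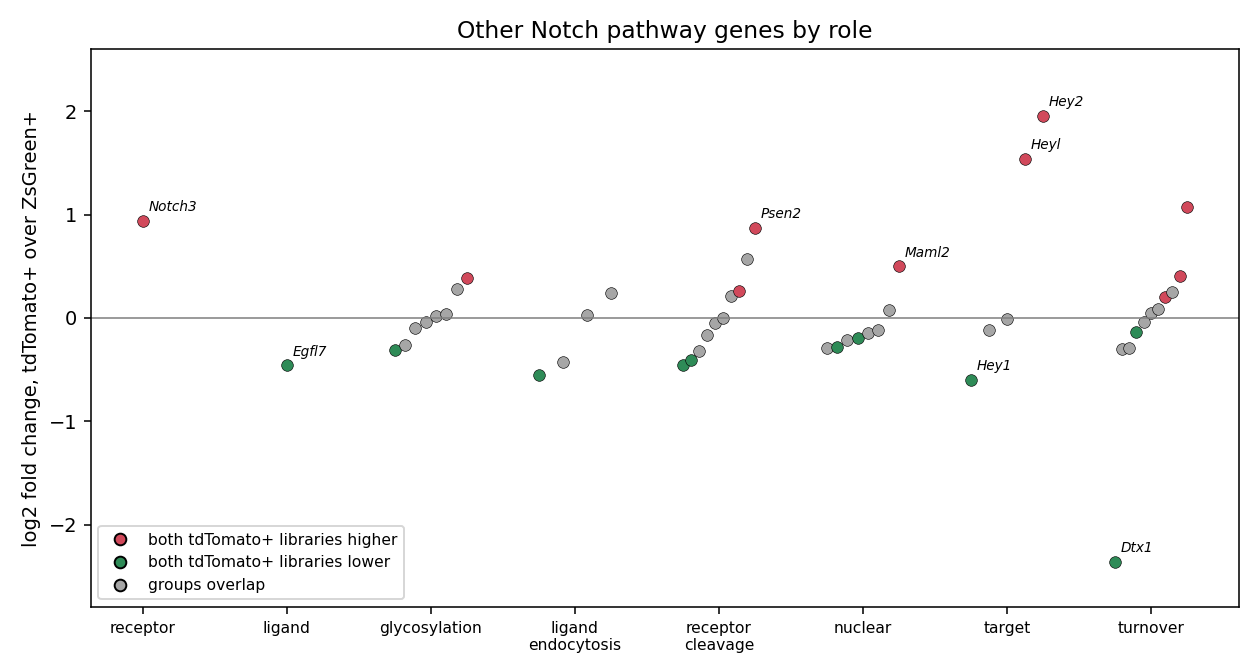
Log2 fold change, tdTomato+ over ZsGreen+, of the 48 other pathway genes tested, by role, coloured by whether both tdTomato+ libraries lay above, below or among the ZsGreen+ libraries in CPM. Hey2 (1.96) and Heyl (1.54) stand at the top and Dtx1 (-2.36) at the bottom, and within each role of 4 or more genes points lie on both sides of 0.

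The genes most like Jag1 and Jag2 over the 4 libraries were sought among the 10359 other genes whose mean reached 5 CPM, by the root mean square difference of centred log2 CPM. Jag1 was closest to Cdc20 (0.054), Mybl2 (0.064) and Palld (0.065), a regulator of mitotic exit, a cell cycle transcription factor and an actin-binding protein. Palld, for one, stood at 68.2 and 109.8 CPM against 42.02 and 69.1 CPM, with replicate 2 again the higher library of each group. Jag2 was closest to Chac1 (0.025), Tmem204 (0.037) and Jdp2 (0.038), an enzyme of glutathione breakdown, an endothelial membrane protein and a transcription factor of the AP-1 family. Tmem204 stood at 369.1 and 336.7 against 572.6 and 503.6 CPM. With 4 libraries many genes share a pattern, so this likeness is a description only.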

How the data were processed

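RNA of sorted lung endothelial cells was extracted with a column kit and amplified over the whole transcriptome before library preparation, per the labels' protocols. The authors deposited, for each gene and library, estimated counts (read counts by their header) and TPM. The submitters' processing notes name RSEM 1.3.1, DESeq2 1.4.5 and the builds mm10 and GRCm38, without saying what each was used for. Of the estimated counts 16.2% to 17.9% per library were not whole; they were rounded. 8 further columns of per-library values were not used.

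edgeR 4.0.16 in R 4.3.3 fitted all 4 libraries with TMM factors (0.927 to 1.045), filterByExpr at a minimum count of 10 (13177 genes) and the quasi-likelihood F-test, two-sided, with Benjamini-Hochberg adjustment over all genes and a threshold of 0.05. CPM uses TMM-scaled totals. The SE divides the absolute log2 fold change by the root of F. On simulated counts for these 13177 genes, drawn at the common coefficient of variation of 26.1%, edgeR called 14% of 2-fold and 94.7% of 4-fold changes in genes of at least 5 CPM. Alternatives were DESeq2 1.42.0, upper quartile and RLE factors, other filters, leaving out each library, a replicate block, and limma 3.58.1 on log2 TPM with a pseudocount of 1 or 0.1. Gene spans are those of the RefSeq table of GRCm38.p6, which differ from the deposited spans for Notch4, Dll1 and Dll4. The deposited Notch4 entry named a sequence other than chromosome 17, with a start of 813088 but the chromosome 17 end of 34588543. What this means for the Notch4 counts and TPM was not tested.

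The members and lists were chosen with earlier results of these data known. Named are all members, Acta2, Notch3, the Hey genes, the most abundant gene of each role and the 6 other pathway genes with the smallest p at a mean of at least 1 CPM, and for Jag1 and Jag2, the largest positive and negative difference among members at 5 CPM or more, the 3 genes nearest in pattern. The text says where another gene was picked after its values were seen.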

Additional observations from a re-analysis of the deposited data

How the results depend on the processing

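The count of genes called over the whole table, 40, depended on the processing: 330 with DESeq2, 128 without a filter on low counts, 22 with limma on log2(TPM + 0.1), 0 with limma on log2(TPM + 1) without a filter (1508 at an unadjusted p under 0.05), and 4 to 304 when 1 library was left out. No member was called under any of these settings. The replicate numbers are not stated to pair the samples, and same-numbered libraries had a correlation of deviations of 0.469. With a replicate block 934 genes were called, among them 1 member, Jag2 (log2 fold change -0.66, edgeR adjusted p = 0.0251), and 3 other pathway genes, Hey2, Psen2 and Dtx1; DESeq2 also called 3. Jag2 was below 0 in all 13 alternatives, from -0.75 to -0.49, with adjusted p from 0.0251 to 0.999, and Jag1 above 0 in all 13, from 0.19 to 0.94. Notch1, Notch4, Hes1 and Nrarp also kept their sign in all 13. The sign of Rbpj turned with limma on TPM, to 0.034 with a pseudocount of 1, with or without a filter, and 0.039 with 0.1, and that of Mfng to 0.095 in all 3, where the median of all genes lay at 0.12, 0.0967 and 0.134 in turn. When single libraries were left out, Dll1 ranged from -0.075 to 0.42, Dll4 from -0.43 to 0.14, Notch2 from -0.47 to 0.67, Mfng from -0.42 to 0.33, Mib2 from -0.17 to 0.27, Nedd4 from -0.061 to 0.26 and Psenen from -0.58 to 0.0028. Shares from counts not divided by length put Notch4 at 48.1% of receptors in tdTomato+ and 54.4% in ZsGreen+ cells (57.4% and 63.4% in TPM) and Dll4 at 56.5% of ligands in tdTomato+ cells (63.1% in TPM). Notch2, at 96 to 199 counts per library, is the member that depth limits most.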
